A study of Drosophila melanogaster with 4 samples.

Results

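The testis of *Drosophila* is wrapped in a sheath that contains multinucleate muscle cells, and 32 genes of the contractile apparatus were followed here as the muscle signal of the dissected testes. They were chosen by name as genes of the sarcomere and of muscle calcium handling, and their counts were summed over all transcripts of a gene, out of 13771 genes with transcripts in the deposited table. RNA was taken from testes of 5-day-old males, with 2 libraries of *sws1* mutants and 2 libraries of the WT strain Canton S, each made from the pooled testes of many males. *sws1* is an allele of *Swiss cheese*, which encodes a phospholipase of the PNPLA6 family, and the study asked how the testis transcriptome differs in the mutant. The *sws1* stock and Canton S are separate stocks, so the allele and the rest of the strain cannot be told apart. The sheath was not sampled separately, and the samples are bulk tissue, in which more or fewer muscle cells and more or less RNA per muscle cell cannot be told apart.

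In a sarcomere, thick filaments of myosin slide along thin filaments of actin that are anchored at the Z-disc. Calcium released through the ryanodine receptor binds troponin C, which moves tropomyosin on the thin filament and lets myosin bind, and the SERCA pump returns the calcium to the store. In *Drosophila*, tropomyosins, troponins and actins come from small gene families whose members are used in different muscles, and the myosin heavy chain comes from a single gene with alternative exons. The sheath of the testis and the walls of the seminal vesicle, accessory gland and ejaculatory duct all hold muscle, so the genes below do not mark the testis sheath alone. Counts of these genes from cells other than muscle were not separated from muscle counts, in single genes or in sums.

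The libraries hold 2364636 and 2218335 counts in *sws1* replicates 1 and 2 and 4498060 and 2692475 in WT replicates 1 and 2. Levels are given as CPM, which are counts relative to library size after TMM scaling, and, between genes, per kilobase of exon (RPKM). The test of *sws1* against WT was the quasi-likelihood test of edgeR, fitted to all 9634 genes that passed its filter on low counts, and a gene was called at an adjusted p under 0.05 with an absolute log2 fold change (log2FC) above 0.3. The mutated gene, *sws*, had 66.2 and 78.0 CPM in *sws1* and 156 and 196 CPM in WT (log2FC −1.28, standard error 0.15).

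Of the 32 muscle genes, 26 passed the filter, and the 6 others were flight or leg muscle genes or minor family members with few reads in every library. In *sws1* testes 4 of the 26 rose, namely *Mlc2*, *Tm1*, *Act57B* and *Zasp66*, which is 15.4%, against 9.38% of all tested genes called higher. None of the 26 fell by edgeR, against 11.5% of all tested genes called lower. No muscle gene with a negative log2FC had an unadjusted p under 0.05, beside 1644 of all 9634 tested genes. DESeq2 called *Mlc2* and *Tm1* as higher and none of the 32 as lower, beside 364 higher and 633 lower of 12923 genes. The median log2FC of the 26 genes was 0.23, beside 0.02 over all tested genes, and it was positive in 18 of them. The 2 *sws1* libraries both lay above the 2 WT libraries in 13 of the 26, beside 31.3% of all tested genes, and both lay below WT in 3 (11.5%), beside 28.9%. The members passed the filter on their counts in at least 1 genotype, so these shares describe the genes that could be tested and not the whole list.

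**Figure D1:**
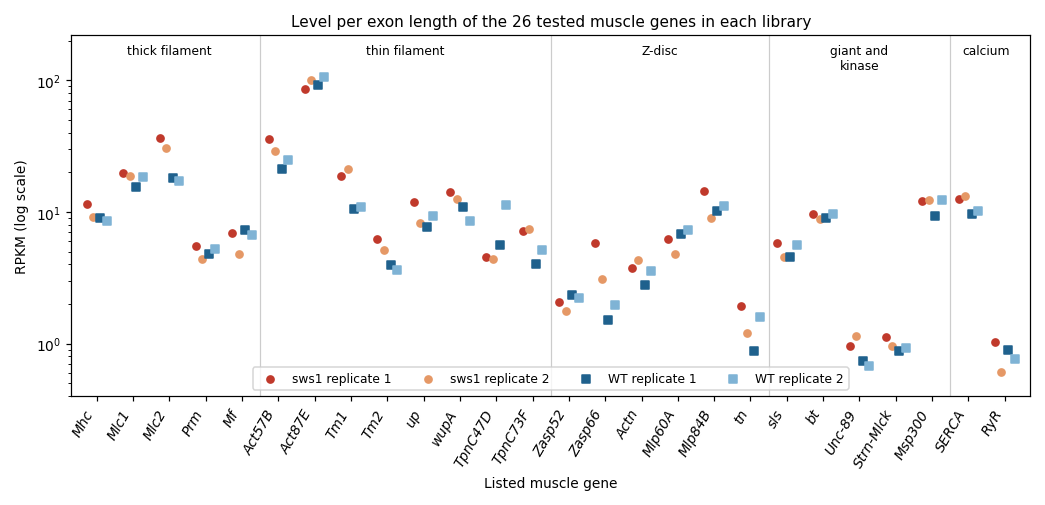
RPKM (log axis) of each of the 26 tested muscle genes in the *sws1* libraries (circles) and the WT libraries (squares), grouped by role. *Act87E* is the highest in every library, at 85.7 to 107 RPKM, and the circles of *Mlc2* and *Tm1* lie clearly above their squares.

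Among the thick filament genes, *Mlc2* alone was called. *Mlc2* encodes the regulatory light chain of muscle myosin (FBgn0002773, 3R, 30171438 to 30174551 in BDGP 6.54), and its table entry is a single transcript. It had 83.4 and 69.3 CPM in *sws1* replicates 1 and 2, against 41.1 and 39.1 CPM in WT replicates 1 and 2. Both mutant libraries lay far above both WT libraries, with means of 76.4 ± 9.96 CPM in *sws1* and 40.1 ± 1.4 CPM in WT (SD, n = 2 each). The fitted difference was a log2FC of 0.93 (standard error 0.17) with an adjusted p of 0.000357 by edgeR, a 1.90-fold rise.

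The partners of *Mlc2* in the myosin molecule differed less between the genotypes. *Mhc*, the muscle myosin heavy chain gene (FBgn0264695), had 104 and 82.4 CPM in *sws1* and 80.8 and 77.5 CPM in WT, and *sws1* replicate 2 was close to the WT libraries. Its log2FC was 0.23 with a 95% interval from −0.08 to 0.55, so it was not called. *Mlc1*, which encodes the essential light chain, had 27.9 and 26.6 CPM in *sws1* and 21.9 and 25.8 CPM in WT (log2FC 0.21, interval −0.22 to 0.64). In both genes the *sws1* values lie above those of WT, but the nearest libraries of the genotypes differ by less than the WT replicates do.

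The core proteins of the thick filament gave values near or below WT. *Prm*, the gene of paramyosin, had 29.5 and 23.5 CPM in *sws1*, and 25.6 and 28.2 CPM in WT, with a log2FC of −0.01 (interval −0.44 to 0.42). *Mf*, the gene of myofilin, had 36.7 and 25.3 CPM in *sws1* and 38.3 and 35.6 CPM in WT, with a log2FC of −0.25 (interval −0.68 to 0.17). The genotypes overlap in both genes. *fln*, whose product flightin belongs to the thick filament of flight muscle, had 0 and 1 counts in *sws1* and 1 and 0 in WT.

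The thin filament held the gene with the highest level per length, the actin gene *Act87E*, and a called tropomyosin gene. *Tm1* (FBgn0003721, 3R, 15278220 to 15308779) encodes muscle tropomyosin and also cytoplasmic tropomyosins made outside muscle. It had 183 and 208 CPM in *sws1* replicates 1 and 2, and 104 and 108 CPM in WT replicates 1 and 2, so that the mutant libraries stood apart from WT. The means were 196 ± 17.8 CPM in *sws1* and 106 ± 2.83 CPM in WT (SD, n = 2 each). The fitted difference was a log2FC of 0.89 (standard error 0.13) with an adjusted p of 3.12e-05 by edgeR, a 1.85-fold rise. *l(3)neo43*, which overlaps *Tm1* on the opposite strand, had a log2FC of −0.42 and was not called.

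The transcripts of *Tm1* end in different last exons, and the counts of whole transcripts were summed by the last exon they share. How reads in exons shared between these groups were divided is not given in the sources used here, so the split is uncertain. The split was chosen after the values had been seen and was not tested. The last exon that starts at 15303641 is shared by Tm1-RL and Tm1-RA, whose summed level was 130 and 154 CPM in *sws1* and 64.4 and 65.0 CPM in WT, 2.2-fold higher in the mutant. This group took 71.2% and 74.1% of the *Tm1* counts in *sws1*, against 62.1% and 60.4% in WT. The 7 transcripts whose last exon starts at 15307590, among them Tm1-RM, had 27.9 and 20.5 CPM in *sws1*, and 19.5 and 26.6 CPM in WT, and the genotypes overlapped. The 3 transcripts Tm1-RC, Tm1-RH and Tm1-RI, which end further upstream at 15297679, had 23.5 and 32.7 CPM in *sws1* and 15.7 and 16 CPM in WT. Most of the difference in *Tm1* therefore lay in the counts assigned to Tm1-RL and Tm1-RA. Which of these transcripts are made in muscle is not given in the annotation used here.

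**Figure D2:**
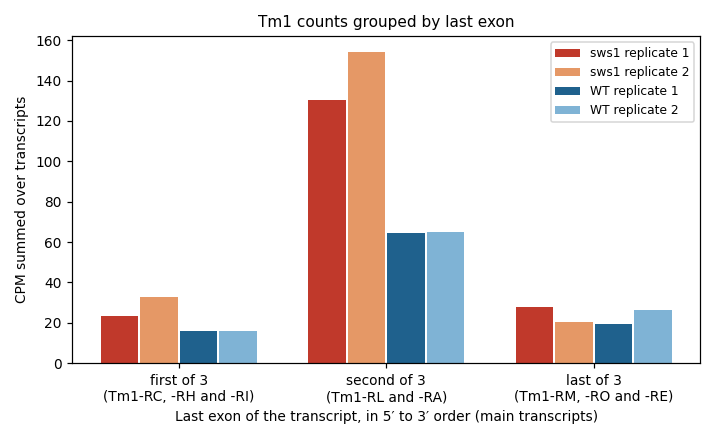
CPM of *Tm1* transcripts summed by the last exon they share, for the 3 last exons with the most counts, in each *sws1* and WT library (bars). The group of Tm1-RL and Tm1-RA reaches 130 and 154 CPM in *sws1* and 64.4 and 65.0 CPM in WT.

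*Tm2*, the second tropomyosin gene and the neighbour of *Tm1* on 3R, had 16.4 and 13.5 CPM in *sws1* and 10.3 and 9.39 CPM in WT. The genotypes do not overlap, and the log2FC was 0.59 (interval 0.01 to 1.17), but the adjusted p of 0.146 (edgeR) did not pass. *wupA*, the gene of troponin I, had 27.9 and 24.8 CPM in *sws1* and 21.4 and 16.8 CPM in WT (log2FC 0.45, interval −0.01 to 0.90). *up*, the gene of troponin T, had 30.3 and 20.9 CPM in *sws1* and 19.3 and 23.5 CPM in WT (log2FC 0.28, interval −0.19 to 0.76). The values of *wupA* do not overlap between genotypes and those of *up* do.

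The muscle actins differed widely in level. *Act87E*, an actin of larval body wall and visceral muscle, was the most abundant of the 26 genes per length, with 85.7 and 100.2 RPKM in *sws1* and 91.3 and 107 RPKM in WT. Its log2FC was −0.09 (interval −0.35 to 0.18), and the genotypes overlapped. *Act57B*, another actin of larval and visceral muscle (FBgn0000044, 2R, 20944021 to 20946431), had 61.5 and 50.1 CPM in *sws1*, and 36.7 and 43.1 CPM in WT. The libraries did not overlap, and the fitted difference was a log2FC of 0.50 (standard error 0.18) with an adjusted p of 0.0491 by edgeR. This call lay at the threshold, and the adjusted p was 0.325 without *sws1* replicate 1, 0.323 without WT replicate 1, 0.0516 without WT replicate 2 and 0.432 with DESeq2, and over all alternatives it ran from 0.0231 to 0.432. Actin genes are nearly identical in their coding sequence, and how reads shared between them were counted is not given in the sources used here, so values of single actins are uncertain.

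Actins of other adult muscles were almost absent. *Act88F*, the flight muscle actin, had 0 and 0 counts in *sws1* and 1 and 1 in WT, and *Act79B*, used in leg and other tubular muscles, had 1 and 1 counts in *sws1* and 1 and 2 in WT. A count of 0 in 1 library allows a level of up to 1.20 CPM (*sws1* replicate 1) or 1.31 CPM (*sws1* replicate 2), taken as 3 counts and covering counting error only. *TpnC4*, a troponin C of flight muscle, had 1 and 0 counts in *sws1* and 0 and 3 in WT. None of the flight muscle markers *Act88F*, *fln* and *TpnC4* had more than 3 counts in a library.

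The troponin C genes encode the calcium sensor of the thin filament, and those used most in the testis had low counts. *TpnC73F* had 19 and 18 counts in *sws1* and 18 and 14 in WT, or 7.58 and 7.85 CPM in *sws1* and 4.23 and 5.48 CPM in WT. *TpnC47D* had 9 and 8 counts in *sws1* and 19 and 23 in WT, or 3.59 and 3.49 CPM in *sws1* and 4.47 and 9.0 CPM in WT. The log2FC was 0.70 for *TpnC73F* (interval −0.09 to 1.48) and −0.84 for *TpnC47D* (interval −1.79 to 0.11), so the genes differed in sign and neither was called. *TpnC25D* had 4 and 4 counts in *sws1* and 5 and 3 in WT, and *TpnC41C*, a troponin C of other adult muscles, had 0 and 2 counts in *sws1* and 0 and 0 in WT.

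At the Z-disc, where the thin filaments are anchored, *Zasp66* was called. *Zasp66* encodes a PDZ domain protein of the Z-disc (FBgn0035917, 3L, 8624371 to 8638813). It had 16.4 and 8.72 CPM in *sws1* replicates 1 and 2, and 4.23 and 5.48 CPM in WT replicates 1 and 2. The mutant libraries both lay above WT, but they differed from each other by more than *sws1* replicate 2 differed from WT replicate 2. The fitted difference was a log2FC of 1.41 (standard error 0.37) with an adjusted p of 0.00907 by edgeR, from 41 and 20 counts in *sws1* and 18 and 14 in WT. The log2FC was 0.87 (adjusted p = 0.244) without *sws1* replicate 1, 1.20 (0.0632) without WT replicate 1 and 1.37 (0.243) with DESeq2, so the call rests on these libraries and on the test. Over all alternatives its adjusted p ran from 0.000119 to 0.244.

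Its relatives and the other Z-disc genes were not called. *Zasp52*, the best studied of the family, had 22.7 and 19.2 CPM in *sws1* and 25.6 and 24.3 CPM in WT (log2FC −0.25, interval −0.69 to 0.19), and the mutant libraries lay below WT. *Zasp67* had 1 and 2 counts in *sws1* and 0 and 1 in WT. *Actn*, the gene of alpha-actinin, which crosslinks actin filaments at the Z-disc, had 19.95 and 22.7 CPM in *sws1* and 14.6 and 18.8 CPM in WT (log2FC 0.38, interval −0.11 to 0.86). *Actn* overlaps exons of *east*, *CG4313* and *usp*.

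The genes of the muscle LIM proteins of the Z-disc region had log2FC values of opposite sign, and neither was called. *Mlp60A* had 17.6 and 13.5 CPM in *sws1* and 19.3 and 20.7 CPM in WT (log2FC −0.35, interval −0.85 to 0.14), with both mutant libraries below WT. *Mlp84B* had 45.1 and 28.3 CPM in *sws1* and 32 and 34.8 CPM in WT (log2FC 0.15, interval −0.30 to 0.59), where *sws1* replicate 1 was the highest and *sws1* replicate 2 the lowest of the 4 libraries. *tn*, which encodes a TRIM family protein needed to maintain muscle structure, had 12.0 and 7.41 CPM in *sws1* and 5.41 and 9.79 CPM in WT, with a log2FC of 0.42 (interval −0.34 to 1.19), and its genotypes overlapped.

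The genes of the giant proteins, whose transcripts are long, took most of the counts of the 32 genes. *Msp300* encodes a nesprin that anchors nuclei and organizes the muscle around them, with 69810 bp of exon. It had 852 and 853 CPM in *sws1* and 652 and 867 CPM in WT, and WT replicate 2 was the highest library. Per length this is 12.2 and 12.2 RPKM in *sws1* and 9.34 and 12.4 RPKM in WT, above *Mhc* in every library. Its log2FC was 0.17 (interval −0.08 to 0.42).

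*sls* and *bt*, the genes of the titin-like proteins Sallimus and projectin, had log2FC values close to 0 with narrow intervals. *bt* had 268 and 246 CPM in *sws1* and 253 and 272 CPM in WT, with a log2FC of −0.03 and an interval from −0.26 to 0.21. *sls* had 346 and 267 CPM in *sws1* and 269 and 332 CPM in WT, with a log2FC of 0.03 and an interval from −0.26 to 0.32. The genotypes interleave in both genes, and the upper bounds lie below the values fitted for *Mlc2* and *Tm1*. *Unc-89* (*Obsc* in the annotation), the obscurin gene of the M-line, had 12.8 and 15.3 CPM in *sws1* and 9.87 and 9.0 CPM in WT (log2FC 0.56, interval −0.04 to 1.15). *Strn-Mlck*, which encodes stretchin and myosin light chain kinase products, had 37.1 and 31.4 CPM in *sws1* and 28.7 and 30.5 CPM in WT (log2FC 0.22, interval −0.19 to 0.62).

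Of the calcium handling genes, *SERCA* came close to the threshold. The pump gene (FBgn0263006, 2R, 23925077 to 23935884) had 104 and 109 CPM in *sws1* and 79.9 and 84.2 CPM in WT. The replicates agreed closely within each genotype, with means of 106 ± 3.39 CPM in *sws1* and 82.0 ± 3.0 CPM in WT (SD, n = 2 each). At a log2FC of 0.37 with a standard error of 0.14 it was not called (adjusted p = 0.0654, edgeR), and it passed with upper-quartile scaling (adjusted p = 0.0356), while over all alternatives the adjusted p ran from 0.0356 to 0.569. *CG2812* overlaps 1325 bp of *SERCA* exon on the opposite strand and had 22 and 10 counts in *sws1* and 15 and 6 in WT. *RyR*, the gene of the calcium release channel, had 16.8 and 10.03 CPM in *sws1*, and 14.6 and 12.5 CPM in WT, with a log2FC of −0.02 (interval −0.61 to 0.57).

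**Figure D3:**
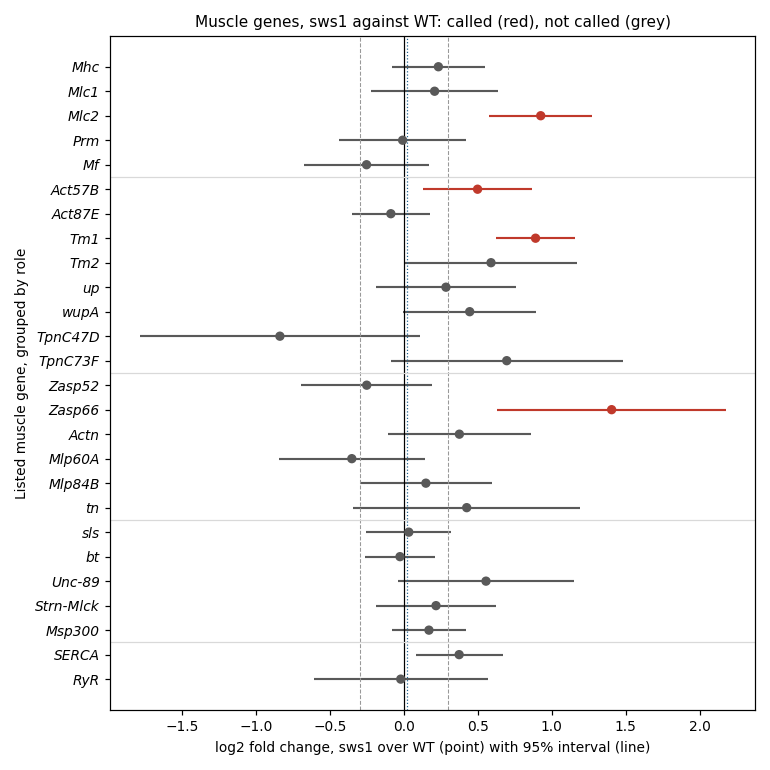
Log2FC of *sws1* over WT (points) with 95% intervals (lines) for the 26 tested muscle genes, grouped by role, called genes in red, with dashed lines at 0.3 and −0.3 and a dotted line at the median of all tested genes (0.02). The intervals of *Mlc2*, *Tm1* and *Zasp66* lie wholly above 0.3, and that of *Act57B* begins at 0.13.

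Ratios of the counts of 2 genes within a library do not depend on the scaling between libraries. The pairs were chosen after the values had been seen, and with 2 libraries against 2 an exact permutation test cannot go below p = 0.333, so the ratios are descriptions. There were 0.804 and 0.841 counts of *Mlc2* for each count of *Mhc* in *sws1*, and 0.509 and 0.505 in WT. *Mlc1* stood at 0.269 and 0.323 counts for each count of *Mhc* in *sws1*, and at 0.270 and 0.333 in WT. The regulatory light chain was thus higher relative to the heavy chain in both mutant libraries, and the essential light chain overlapped between the genotypes.

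Relative to the actin gene *Act87E*, *Tm1* was higher in both mutant libraries, but relative to *Tm2* its genotypes overlapped. *Tm1* had 1.07 and 1.05 counts for each count of *Act87E* in *sws1*, and 0.571 and 0.507 in WT. For each count of *Tm2* it had 11.2 and 15.4 counts in *sws1*, and 10.02 and 11.5 in WT, with *sws1* replicate 1 below WT replicate 2. *Act57B* had 0.361 and 0.252 counts for each count of *Act87E* in *sws1* and 0.202 and 0.203 in WT, where the mutant libraries were above WT but differed between themselves. The ratio of *sls* to *bt* was 1.29 and 1.09 in *sws1* and 1.06 and 1.22 in WT, and that of *up* to *wupA* was 1.09 and 0.842 in *sws1* and 0.901 and 1.4 in WT. In these last pairs the genotypes overlapped. Of the 11 pairs computed, both mutant libraries lay above WT in 7 and the genotypes overlapped in 4. Which gene stood on top was chosen with each pair, so these counts say nothing on a common direction.

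**Figure D4:**
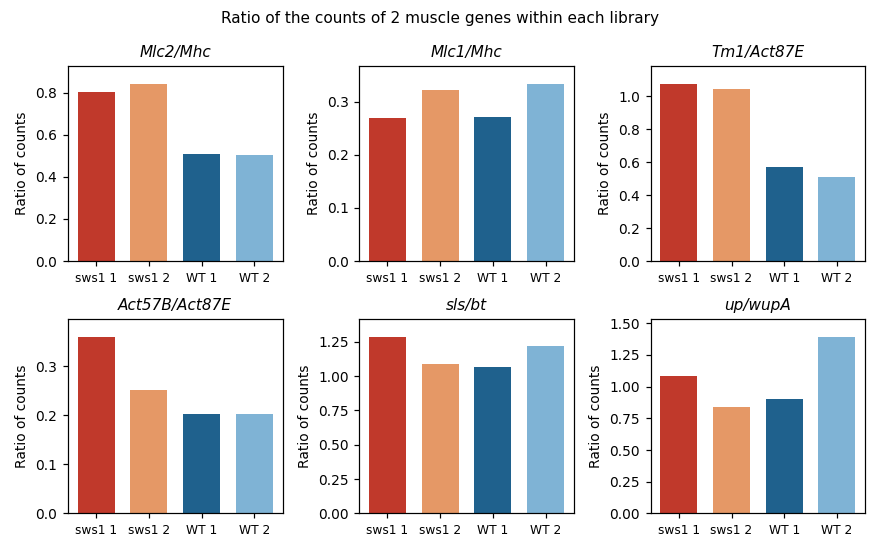
Ratio of the counts of 2 muscle genes within each *sws1* and WT library (bars, linear axis from 0). *Mlc2*/*Mhc* is 0.804 and 0.841 in *sws1* and 0.509 and 0.505 in WT, whereas *Mlc1*/*Mhc*, *sls*/*bt* and *up*/*wupA* overlap between the genotypes.

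Summed over all 32 genes, the level was 2554 and 2390.4 CPM in *sws1* and 1999 and 2357 CPM in WT, with *sws1* replicate 2 and WT replicate 2 nearly equal. Without *Msp300*, *sls* and *bt* it was 1089 and 1025 CPM in *sws1* and 825 and 886 CPM in WT, which do not overlap. This smaller sum was not among the planned comparisons. It leaves out genes that were not called and keeps the called genes *Mlc2*, *Tm1*, *Act57B* and *Zasp66*. Thick filament genes summed to 281 and 228 CPM in *sws1* and 208 and 206 CPM in WT, and thin filament genes to 503 and 531 CPM in *sws1* and 383 and 429 CPM in WT. The thick filament sum includes *Mlc2*, at 83.4 and 69.3 CPM in *sws1* and 41.1 and 39.1 CPM in WT. The thin filament sum includes *Tm1*, at 183 and 208 CPM in *sws1* and 104 and 108 CPM in WT. These sums therefore do not show that the other genes of either class were higher. For Z-disc genes the sums were 134 and 101 CPM in *sws1* and 101 and 114 CPM in WT, and these overlapped. Between the mutant libraries, 19 of the 26 tested genes (73.1%) were higher in *sws1* replicate 1, beside 48.2% of all tested genes, with a median log2 ratio of 0.26 between *sws1* replicates 1 and 2, beside −0.01 over all genes. The WT libraries also differed, with 8 of the 26 genes higher in WT replicate 1, beside 4771 of all 9634 tested genes. The median log2 ratio of the 26 genes between WT replicates 1 and 2 was −0.12, beside −0.004 over all genes.

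Summed markers of organs that are attached to the testis and also carry muscle differed between the genotypes, and those of the accessory gland also differed between the mutant libraries. The 15 accessory gland genes summed to 1529 and 583 CPM in *sws1* and 68.2 and 77.5 CPM in WT, and all 14 that could be tested were higher in *sws1* replicate 1 than in *sws1* replicate 2. None of the 15 was at 0 in a mutant library, and *Acp63F* was at 0 in WT replicate 1. The 5 ejaculatory duct and bulb genes summed to 356 and 342 CPM in *sws1* and 20.7 and 30.5 CPM in WT. In these, *EbpII* had 0 counts in both mutant libraries and *Ebp* had 2 and 6 counts in *sws1* and 6 and 3 in WT. The 3 cyst cell genes summed to 97.0 and 124 CPM in *sws1* and 81.3 and 79.8 CPM in WT. Fat body genes summed to 655 and 595 CPM in *sws1* and 341 and 299 CPM in WT, hemocyte genes to 172 and 180 CPM in *sws1* and 198 and 150 CPM in WT, and neuron genes to 24.3 and 37.5 CPM in *sws1* and 58.8 and 33.3 CPM in WT. The 6 genes listed for spermatocytes and spermatids, which mark the germ line, summed to 2933 and 3007 CPM in *sws1* and 4726 and 4746 CPM in WT. By edgeR 4 of these 6 were called lower, against 11.5% of all tested genes, and the other 2 had a positive log2FC. The part of these cell types in the muscle values was not tested. Without *sws1* replicate 1 the log2FC was 0.79 for *Mlc2*, 0.98 for *Tm1*, 0.34 for *Act57B* and 0.87 for *Zasp66*. The remaining *sws1* replicate 2 still held 583 CPM of accessory gland markers and 342 CPM of ejaculatory duct and bulb markers. Leaving out *sws1* replicate 1 therefore did not set these organs aside.

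**Figure D5:**
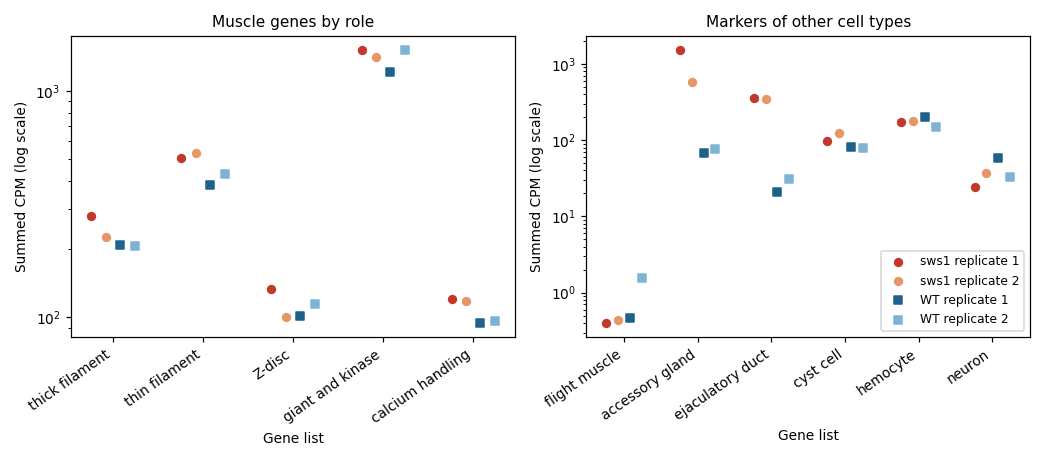
Summed CPM (log axis) of the muscle genes by role (left) and of marker lists of other cell types (right) in the *sws1* libraries (circles) and WT libraries (squares). Accessory gland markers reach 1529 and 583 CPM in *sws1*, against 68.2 and 77.5 CPM in WT, while no muscle role differs by as much and flight muscle markers stay at 0.399 to 1.57 CPM.

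Of 40 further muscle genes in 3 lists, 37 were tested, and edgeR called 6 higher (16.2%, against 9.38% of all tested genes) and 1 lower (2.70%, against 11.5%). DESeq2 called 1 of them higher and 1 lower, beside 364 higher and 633 lower of 12923 genes. Their median log2FC was 0.27, beside 0.02 over all tested genes. Among genes of assembly and regulation, 3 of 15 were called higher by edgeR (20%, against 9.38% of all tested genes). DESeq2 called none of the 15 higher, against 364 of 12923 genes. The genes called by edgeR were *Mp20* (log2FC 0.76), which encodes a calponin-like muscle protein, *unc-45* (0.72), the myosin chaperone gene, and *cpb* (0.66), which encodes a subunit of actin capping protein. *bru1*, which encodes an RNA-binding protein that controls splicing in flight muscle and is also made in the germ line, fell by both tests, with 230 and 263 CPM in *sws1* and 441 and 463 CPM in WT (log2FC −0.88). *Mef2*, named here after its value was seen, is the gene of the main transcription factor of muscle and had 25 and 14 counts in *sws1* and 46 and 35 in WT (log2FC −0.57, adjusted p = 0.232, edgeR) and was not called.

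Genes of muscle attachment had a median log2FC of 0.44, beside 0.02 over all tested genes. By edgeR 3 of 13 were called higher (23.1%, against 9.38% of all tested genes) and none lower (against 11.5%). The called genes were the integrin subunit genes *if* (log2FC 0.79) and *mys* (0.73) and *stck* (0.53), whose product acts at integrin adhesions. *mys* had 135 and 136 CPM in *sws1* and 78.7 and 84.9 CPM in WT. DESeq2 called *mys* alone of the 13 as higher, against 364 of 12923 genes. No gene of the 13 with a negative log2FC had an unadjusted p under 0.05 by edgeR, beside 1644 of all 9634 tested genes. Of the 9 genes of excitation and energy supply, 0 were called by edgeR, against 20.9% of all tested genes. DESeq2 called 0 of the 9, against 997 of 12923 genes. By edgeR 0 of the 9 had an unadjusted p under 0.05, against 3189 of all 9634 tested genes. *Argk1*, the arginine kinase gene, had 678 and 614 CPM in *sws1* and 687 and 641 CPM in WT (log2FC −0.04, interval −0.25 to 0.17).

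The non-muscle counterparts of these genes were also read, since the sheath and the other somatic cells use them. Of 9 genes of non-muscle actomyosin, 2 were called higher by edgeR (22.2%, against 9.38% of all tested genes). DESeq2 called *zip* alone of these, against 364 of 12923 genes called higher. None was called lower by edgeR, against 11.5% of all tested genes, or by DESeq2, against 633 of 12923 genes. None with a negative log2FC had an unadjusted p under 0.05 by edgeR, beside 1644 of all 9634 tested genes. *zip*, the non-muscle myosin heavy chain gene, had 219 and 218 CPM in *sws1* and 109 and 155 CPM in WT (log2FC 0.74). *Act42A*, a cytoplasmic actin gene, had 522 and 541 CPM in *sws1* and 373 and 445 CPM in WT (log2FC 0.38). The mutant libraries lay above WT in both genes.

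Single transcripts carried less information than genes. Of 244 transcripts of the 32 genes in the table, 144 had counts and 61 were tested. The edgeR test called 0 of the 61, as it called 0.0% of all 14158 tested transcripts. DESeq2 was not run on transcripts. The counts of a gene moved between its transcripts from replicate to replicate. The transcript Mhc-RR (FBtr0307493) had 115 and 0 counts in *sws1* and 122 and 84 in WT, so the mutant replicates differed more than the genotypes. Of the 22 muscle genes that reached 20 counts in all 4 libraries, 20 had several annotated transcripts. In 8 of these 20 the leading transcript differed between *sws1* replicates 1 and 2, and in 8 it differed between the WT replicates.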

How the data were processed

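Testes of 5-day-old *sws1* and Canton S males were sequenced in 2 libraries per genotype. The authors trimmed reads with Trimmomatic, aligned them with HISAT2 and counted them with HTSeq, and the deposited table holds raw counts per transcript. The strand setting and the handling of shared reads are not given in the sources used here. The counts were summed per gene: 29929 of 29939 transcripts matched the Ensembl release 115 annotation (BDGP 6.54), and the 10 others held 0.0011% of counts. Genotypes were compared with edgeR 4.0.16 (R 4.3.3; TMM, filterByExpr, quasi-likelihood test, Benjamini-Hochberg adjustment over 9634 genes), and genes were called below an adjusted p of 0.05 if their log2FC was beyond 0.3 in either direction. The code was tested on simulated data.

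All 32 listed genes and *sws* are named, with at most 4 genes of each other list: the called ones by absolute log2FC, otherwise those with the most counts. Exceptions, chosen after their values had been seen, are *Mef2* and markers at or near 0. The members and lists were chosen with earlier results of these data known. Alternatives were DESeq2 1.42.0, 2 other scalings, other count filters, a replicate block, transcripts in place of genes and each library left out in turn. The study's methods call the 2 libraries of each genotype biological replicates, each from its own pool of testes. RPKM used the union of exons of a gene. Intervals of log2FC are 95% intervals from the edgeR fit. No sequences are shown.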

Additional observations from a re-analysis of the deposited data

How the results depend on the processing

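Over all genes, 2013 were called (904 higher and 1109 lower in *sws1*), and 4 of the muscle genes were higher. DESeq2 called 997 genes (364 higher and 633 lower), with 2 muscle genes higher. With a library left out, the calls ran from 1394 to 1905 over all genes, from 635 to 837 higher and from 759 to 1068 lower, and 2 to 4 muscle genes were higher. There were 2 without *sws1* replicate 1 and 2 without WT replicate 1. No muscle gene was called lower under any alternative. *Mlc2* and *Tm1* were called in every fit of genes, but not by their most abundant transcript (adjusted p = 0.131 and 0.0994, edgeR). The fit of transcripts called 0 of all 14158 tested, and the only transcript of *Mlc2* has the same counts as the gene. The loss of these calls therefore says nothing on the transcripts themselves. Upper-quartile scaling moved the median log2FC of all genes to 0.07 and called 5 muscle genes.

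The replicate numbers only name the libraries: with 2 pairs, the correlation of the replicate differences of the genotypes was −0.0077. With the replicate number as a block, 2104 genes were called (952 higher and 1152 lower), with 4 muscle genes higher, where *SERCA* (adjusted p = 0.0475) took the place of *Act57B* (0.0566, edgeR). With 2 libraries per genotype and few counts in genes such as *TpnC47D*, differences smaller than the intervals given were not detectable at this depth.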

Other observations

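There were 4 transcripts of the muscle genes with no counts in both libraries of one genotype and at least 20 counts in both libraries of the other, and none was called by edgeR. bt-RC (FBtr0089793) had 0 and 0 counts in *sws1* and 442 and 243 in WT, at least 79.4-fold lower in *sws1* when 3 counts are put in each library at 0 (adjusted p = 0.0980, edgeR). Mhc-RH (FBtr0080902) had 0 and 0 counts in *sws1* and 101 and 79 in WT, at least 21.8-fold lower. SERCA-RC (FBtr0072217) had 93 and 54 counts in *sws1* and 0 and 0 in WT, at least 32.3-fold higher. Mhc-RE (FBtr0080899) had 43 and 41 counts in *sws1* and 0 and 0 in WT, at least 18.6-fold higher. These transcripts were picked after their values had been seen. In 11 muscle genes a transcript also had 0 counts in one *sws1* replicate and at least 20 in the other, and 11 genes had such a transcript between the WT replicates.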
